A study of Mus musculus with 8 samples.

Results

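The genes described here are Ndrg1, Vhl and 8 genes of the hypoxia pathway in Neuro2A (N2A) cells, a mouse neuroblastoma line, during the first 8 h of cannabinoid receptor stimulation. The 10 names were Ndrg1, Vhl, Hif1a, Epas1, Arnt, Egln1, Egln3, Vegfa, Bnip3 and Ddit4. They were chosen from the 2 h contrast of these libraries, in which Ndrg1 and Vhl stood out, together with known genes of the hypoxia pathway. All were looked up by symbol. Of the 10, 9 were found among the 16974 genes listed, and Epas1 was not analysed here. All cells were kept for 16 h in serum-free medium with albumin and then received 2 µM HU210, an agonist of the cannabinoid receptor CB1R dissolved in DMSO, or drug-free DMSO. Polyadenylated RNA was sequenced at 2, 4, 6 and 8 h, which gave 8 libraries, 4 with HU210 and 4 with DMSO, and the study asked how gene expression changes while HU210 drives neurite outgrowth. Each library held RNA pooled from 2 to 3 separate experiments, so there was 1 library per condition and no replicate of any. Without replicates, a difference at a time point compares 2 libraries and carries no p-value. The 4 DMSO libraries are used below as the measured spread, in which time, library and pool cannot be told apart.

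Cells sense oxygen through a short chain of proteins. Prolyl hydroxylases of the EGLN family use oxygen to mark the alpha subunits HIF1A and EPAS1, the VHL protein binds the marked subunit and, with elongins, a cullin and RBX1, attaches ubiquitin to it, and the proteasome then destroys it. When oxygen is short the alpha subunit is spared, pairs with ARNT and binds the hypoxia response element in the genes it activates, among them those for the growth factor VEGFA, the mitophagy receptor BNIP3, the mTOR pathway inhibitor DDIT4, the glycolytic enzymes and the hydroxylases EGLN1 and EGLN3. Ndrg1 was named for its repression by MYCN, the oncogene amplified in many neuroblastomas, and is itself a hypoxia-inducible gene whose protein is phosphorylated by the kinase SGK1. Because the chain acts through the stability of a protein, RNA levels show only how much transcript of each part was present.

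The response element is built on a 5-base core, ACGTG or GCGTG, and both words were searched on both strands of RefSeq promoter windows of the GRCm38.p6 build, from 250 bases before to 50 bases after each start site. Windows were matched for 8 of the 10 names, 9 windows in all, since Vegfa has 2 start sites, and Ndrg1 and Epas1 had no match. Of those 8 genes, 7 held at least 1 core word in any window, beside 46.7% of all 27025 genes with a window, counted in the same way. Vegfa was among the 7 only through its second start, since the window at its first start held none. By window it was 7 of 9, beside 43.8% of all 32851 windows. Such a word is a match of letters and not a bound site. The windows of 4 genes are shown because they span the range: Vhl held no core word, Hif1a held 3 matches, Egln1 held 2, and Bnip3 held 5, the most of the 9 windows. Capitals mark the core words, and where they form the palindrome of 6 letters the word is read on both strands and counts as 2 matches.
Vhl, chr6:113623744-113624043, plus strand: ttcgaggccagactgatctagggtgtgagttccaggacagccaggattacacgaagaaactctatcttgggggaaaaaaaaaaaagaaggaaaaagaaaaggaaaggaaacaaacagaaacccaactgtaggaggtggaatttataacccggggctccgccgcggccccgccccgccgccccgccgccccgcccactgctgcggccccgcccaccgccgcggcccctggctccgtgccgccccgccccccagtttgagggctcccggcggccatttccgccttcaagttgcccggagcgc
Hif1a, chr12:73907617-73907916, plus strand: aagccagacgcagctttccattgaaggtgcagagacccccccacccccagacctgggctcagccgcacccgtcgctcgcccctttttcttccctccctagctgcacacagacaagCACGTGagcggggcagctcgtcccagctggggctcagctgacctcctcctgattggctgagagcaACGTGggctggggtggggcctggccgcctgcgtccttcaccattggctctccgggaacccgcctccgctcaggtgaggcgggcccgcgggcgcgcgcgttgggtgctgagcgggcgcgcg
Egln1, chr8:124949205-124949504, minus strand: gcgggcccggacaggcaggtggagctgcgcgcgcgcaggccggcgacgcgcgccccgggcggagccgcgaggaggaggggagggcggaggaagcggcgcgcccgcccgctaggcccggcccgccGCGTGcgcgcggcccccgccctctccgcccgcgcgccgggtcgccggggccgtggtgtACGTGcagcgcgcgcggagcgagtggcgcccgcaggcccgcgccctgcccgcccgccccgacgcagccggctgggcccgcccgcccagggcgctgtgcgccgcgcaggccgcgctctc
Bnip3, chr7:138909457-138909756, minus strand: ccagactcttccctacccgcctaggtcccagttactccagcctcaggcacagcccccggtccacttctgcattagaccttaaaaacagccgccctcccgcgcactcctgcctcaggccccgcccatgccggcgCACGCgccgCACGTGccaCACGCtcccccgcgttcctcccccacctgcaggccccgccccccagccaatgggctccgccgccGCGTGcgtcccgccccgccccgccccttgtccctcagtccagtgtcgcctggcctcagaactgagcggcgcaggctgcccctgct
In Bnip3, 4 of the 5 matches began between positions -117 and -99 from the start site and the remaining match at position -35, while those of Egln1 began at positions -126 and -68. The matches of Hif1a began at positions -135, -134 and -70, and Ddit4, whose window is not shown, held matches at positions -187 and -115.

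**Figure D1:**
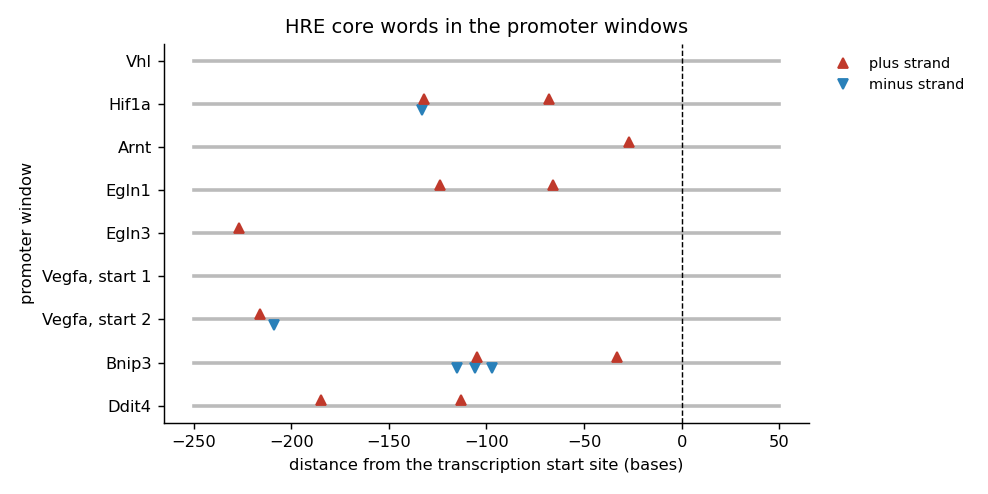
Positions of the core words ACGTG and GCGTG in the 9 promoter windows. The horizontal axis is the distance from the transcription start site in bases (dashed line at 0), each line is 1 window, upward red triangles are matches on the gene's own strand and downward blue triangles those on the other. The Vhl window and the first start of Vegfa hold none, and Bnip3 holds 5.

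Values are FPKM, fragments per kilobase of transcript and per unit of library size, which can be compared between genes. The study gives the reads sequenced per library, but the number behind each gene's value was not used here, so its counting error was not computed. Neuroblastoma and neuron markers were present: 12 of 14 had a mean of at least 1 FPKM, with Ret at 104 to 120 FPKM and Hand2 at 70.5 to 108 FPKM, although Dcx stayed under 0.09 FPKM. Their summed level was 581 to 720 FPKM with HU210 and 605 to 687 FPKM with DMSO. Of 14 markers of glia, immune, vessel, connective and blood cells, 4 had a mean of at least 1 FPKM, the summed level was 8.55 to 10.0 FPKM with HU210 and 8.66 to 9.80 FPKM with DMSO, and defining markers such as Gfap, Cd68, Cdh5 and Col1a1 stayed under 0.53 FPKM. The 4 h pair stood apart from the others: the log2 change of a gene rose with the GC content of its transcript there, with a Spearman correlation of 0.53 across 10590 genes, against 0.17 at 2 h, -0.30 at 6 h and -0.15 at 8 h. In bulk RNA, fewer cells with a transcript and less transcript per cell cannot be told apart.

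Across the 8 libraries the 2 most abundant transcripts of the group were the HIF targets Vegfa, at 75.4 ± 8.45 FPKM (SD, n = 8), and Ddit4, at 74.4 ± 6.11 FPKM (SD, n = 8), whose ranges overlapped. Hif1a followed at 31.6 ± 4.86 FPKM (SD, n = 8), below every Ddit4 value. Egln1 at 18.4 ± 3.39, Vhl at 14.0 ± 2.22 and Bnip3 at 12.9 ± 2.00 FPKM (SD, n = 8 each) formed a run in which each range overlapped the next, and the range of Hif1a overlapped that of Egln1. Arnt, at 8.11 ± 0.875 FPKM (SD, n = 8), lay below every Bnip3 value, so the constitutive subunit was less abundant as RNA than its hypoxia-regulated partner Hif1a. Ndrg1 averaged 4.14 ± 2.42 FPKM (SD, n = 8) with a range that overlapped that of Arnt, and Egln3 was near absent at 0.0685 ± 0.0275 FPKM (SD, n = 8). These SDs take in time and treatment together.

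**Figure D2:**
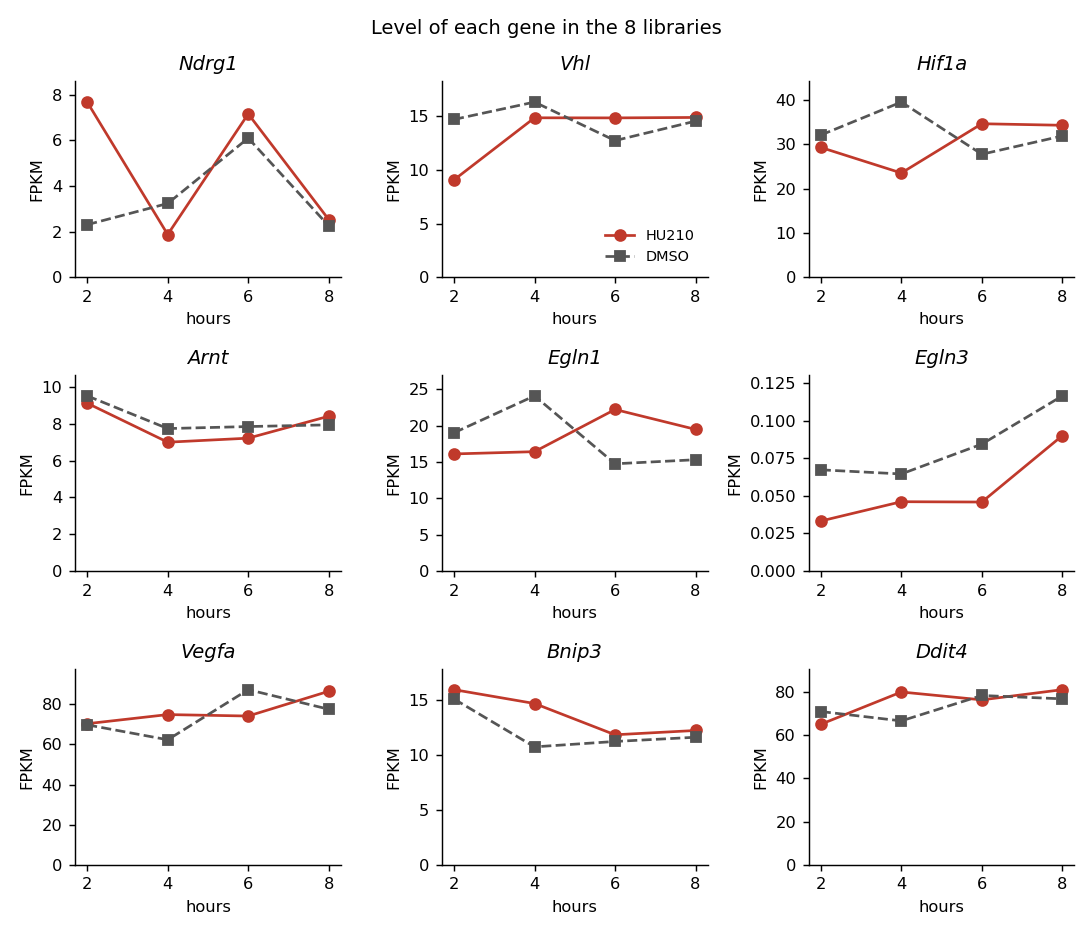
FPKM (vertical axis, starting at 0, with its own scale in each panel) of each gene against hours (horizontal axis), with HU210 as red circles and DMSO as grey squares, 1 library per point. Ndrg1 is high in 3 of 8 libraries, Vhl is low only with HU210 at 2 h, and Hif1a and Egln1 are highest with DMSO at 4 h.

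Ndrg1 (ENSMUSG00000005125, chr15:66760883-66801202 in mm9, minus strand) had no steady level in either treatment. With DMSO it stood at 2.30, 3.23, 6.10 and 2.25 FPKM at 2, 4, 6 and 8 h, and with HU210 at 7.68, 1.87, 7.16 and 2.53 FPKM. Thus 3 libraries were high, HU210 at 2 h and both at 6 h, and the other 5 lay between 1.87 and 3.23 FPKM. The ranges of the treatments overlapped. The log2 change (log2 of the ratio of FPKM + 1, HU210 over DMSO of the same time) took the values 1.39, -0.56, 0.20 and 0.12 in order of time. The 2 h value, a raw ratio of 3.34, chose the gene and was the largest of 11239 genes with at least 1 FPKM in both libraries. Measured against the drug-free libraries as a set it was much smaller: HU210 at 2 h was 1.26 times the highest DMSO library, and the same ratio at 6 h was 1.17, where the change against the matched library was 0.20. The 4 DMSO libraries differed from each other by up to 2.71 times, a range as large as which 1.85% of 11311 genes had. With the average of the DMSO libraries as reference, the log2 change was 1.03 at 2 h and 0.95 at 6 h. Gm17035 and Gm2895, 2 predicted genes on the opposite strand, Gm17035 and Gm2895, share 419 and 137 exonic bases with Ndrg1, and they were not analysed here. Whether the counting used the strand is not given in the sources used here.

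The relatives and regulators of Ndrg1 had narrower ranges. Its family members Ndrg2, Ndrg3 and Ndrg4 ranged over the 8 libraries from 2.56 to 3.70, from 13.9 to 16.6 and from 6.63 to 8.01 FPKM, so Ndrg3 was the most abundant of the family. Mycn, a repressor of Ndrg1, was at 13.9 FPKM with HU210 and 10.3 FPKM with DMSO at 2 h, a log2 change of 0.40 in the same direction as Ndrg1, and at most 0.24 in size later. Myc, the most abundant gene of this list, ranged from 67.9 to 76.9 FPKM. The genes closest to Ndrg1 over the 8 libraries by Pearson correlation of log2 levels, of 8616 genes with a mean of at least 5 FPKM, were Rangrf (r = 0.96), Bcor (r = 0.93) and Gm10439 (r = 0.92), a description of 8 points that share their libraries. Their amplitude was far smaller, for Rangrf from 23.8 to 29.7 FPKM.

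Vhl (ENSMUSG00000033933, chr6:113573953-113581627 in mm9, plus strand), the substrate receptor of the ligase, was even in 7 of 8 libraries. It measured 14.7, 16.3, 12.7 and 14.6 FPKM with DMSO and 9.08, 14.9, 14.9 and 14.9 FPKM with HU210 at 2, 4, 6 and 8 h. The HU210 library at 2 h alone was low, at 0.712 of the lowest DMSO library, and the other 3 HU210 libraries fell within the DMSO range. Its log2 changes were -0.64, -0.13, 0.21 and 0.03, and with the GC and length trend of the 2 h pair removed the first was -0.56, short of 1.5-fold. At 2 h 1.33% of the 11239 genes changed by as much in either direction. The DMSO libraries differed by up to 1.28 times, a range reached by 48.8% of genes, so the drug-free spread of Vhl was ordinary where that of Ndrg1 was wide. The genes closest to Vhl over the 8 libraries, of 8615 genes, were Hsp90ab1 (r = 0.99), 0610009B22Rik (r = 0.96) and Mras (r = 0.95). Hsp90ab1, which encodes a heat shock protein 90 chaperone, was at 1512 FPKM with HU210 at 2 h and at 1799 to 2049 FPKM in the other 7 libraries. Over the same libraries Vhl and Ndrg1 had r = -0.63, again 8 points, of which HU210 at 2 h was lowest for Vhl and highest for Ndrg1. Both genes were chosen for opposite changes in that library, which largely fixes a negative r, so the value is no evidence of a link.

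The other subunits of the VHL ligase were more abundant than Vhl at the RNA level, with means from 37.4 FPKM (Cul2) to 70.1 FPKM (Elob), and none of them passed 1.5-fold at 2 h. Elob, the most abundant, ranged from 54.5 to 83.4 FPKM and Rbx1 from 55.9 to 76.3 FPKM. At 4 h, 2 of the 4 were lower by 1.5-fold with HU210, beside 8.7% of the 11311 genes with a mean of at least 1 FPKM: elongin C (Eloc) was at 38.3 FPKM against 71.3 FPKM, a log2 change of -0.88, and the scaffold cullin Cul2 at 28.8 FPKM against 47.7 FPKM, a log2 change of -0.71. With the average DMSO level as reference the change was -0.41 for Eloc and -0.40 for Cul2, and with the GC and length trend removed it was -0.70 for Eloc and -0.36 for Cul2, which then no longer passed.

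Hif1a (ENSMUSG00000021109, chr12:75002362-75048517 in mm9, plus strand) and Egln1 (ENSMUSG00000031987, chr8:127432496-127473154, minus strand), the HIF subunit and the main hydroxylase that marks it, shared a pattern over time. Hif1a was at 32.1, 39.5, 27.7 and 31.9 FPKM with DMSO and at 29.3, 23.5, 34.6 and 34.3 FPKM with HU210. Egln1 was at 19.0, 24.1, 14.7 and 15.3 FPKM with DMSO and at 16.1, 16.4, 22.2 and 19.5 FPKM with HU210. Both had their highest value of all 8 libraries with DMSO at 4 h. They were lower with HU210 at 2 and 4 h and higher at 6 and 8 h, and r between them was 0.77 over the 8 libraries. At each time point taken alone, most genes had the same sign. Of 11311 genes 64% and 59% were lower at 2 and 4 h, and 65.6% and 62.5% higher at 6 and 8 h. How many genes had all 4 signs together was not counted. DMSO at 4 h was the highest DMSO library in 37.8% of these genes. Other genes were closer to each of them, with r up to 0.996 for Hif1a and 0.988 for Egln1. The log2 changes of Hif1a were -0.13, -0.73, 0.31 and 0.10, and those of Egln1 were -0.23, -0.53, 0.56 and 0.33. HU210 at 4 h was below every DMSO library for Hif1a, at 0.847 of the lowest, while all 4 HU210 values of Egln1 lay within its DMSO range. The 4 h change of Hif1a was -0.45 against the average DMSO level and -0.36 after the GC and length trend of that pair was taken out. The Hif1a transcript is 41.3% GC, at percentile 7.72 of all genes, and the trend at 4 h ran towards lower values at low GC. Egln1, at 55.6% GC, went the other way: its 4 h change was -0.61 with the trend removed but -0.12 against the average DMSO level. Hif1a shares 330 exonic bases with Gm15283 on the opposite strand, which was not analysed here.

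Arnt (ENSMUSG00000015522, chr3:95238310-95301162 in mm9, plus strand) had the smallest maximum log2 change of the 8 genes with a mean of at least 1 FPKM, 0.13 in size. It was at 9.52, 7.75, 7.85 and 7.95 FPKM with DMSO and at 9.13, 7.004, 7.22 and 8.42 FPKM with HU210, highest at 2 h in both treatments. Egln3 (ENSMUSG00000035105, chr12:55279968-55304847 in mm9, minus strand) was at 0.0673, 0.0646, 0.0845 and 0.117 FPKM with DMSO and at 0.0333, 0.0461, 0.0459 and 0.0901 FPKM with HU210. These levels were too low to read a change from, and its log2 changes were between -0.05 and -0.03. Of the remaining hydroxylases and coactivators, the prolyl hydroxylase Egln2, the most abundant of that list, ranged from 20.9 to 31.7 FPKM with its largest change of 0.57 at 4 h, and the asparaginyl hydroxylase Hif1an ranged from 11.8 to 13.2 FPKM.

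None of the 3 HIF targets passed 1.5-fold against the matched DMSO library before a trend was removed, although Bnip3 passed 1.3-fold at 4 h. Vegfa (ENSMUSG00000023951, chr17:46153942-46169326 in mm9, minus strand) was at 69.8, 62.3, 87.3 and 77.5 FPKM with DMSO and at 70.4, 74.9, 74.2 and 86.5 FPKM with HU210, and every HU210 value lay within the DMSO range. Bnip3 (ENSMUSG00000078566, chr7:146082519-146101202, minus strand) was at 15.1, 10.7, 11.2 and 11.6 FPKM with DMSO and at 16.0, 14.7, 11.8 and 12.2 FPKM with HU210. Ddit4 (ENSMUSG00000020108, chr10:59412423-59414518, minus strand) was at 71.0, 66.6, 78.4 and 76.8 FPKM with DMSO and at 65.1, 80.0, 76.4 and 81.1 FPKM with HU210. For all 3 the lowest DMSO value was the 4 h one, the library in which Hif1a and Egln1 peaked. The 4 h log2 changes were positive, 0.26 for Vegfa, 0.42 for Bnip3 and 0.26 for Ddit4, and at the other times no change of the 3 exceeded 0.23 in size. Against the average DMSO level the 4 h changes were 0.02, 0.26 and 0.13, and Ddit4 with HU210 at 4 h was above every DMSO library. Bnip3 had positive changes at all 4 time points, of 0.07 at 2, 6 and 8 h. The all-gene medians were about that size at 6 h (0.06) and 8 h (0.04), but negative at 2 h (-0.05) and 4 h (-0.08). The 6 h change of Bnip3 turned to -0.05 with the GC and length trend removed and to -0.03 against the average DMSO level. Its 8 h change turned to -0.03 with the trend removed. Its 4 h change was 0.66 with that trend removed, the transcript being 41.6% GC. Vegfa and Ddit4 had r = 0.81 over the 8 libraries.

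**Figure D3:**
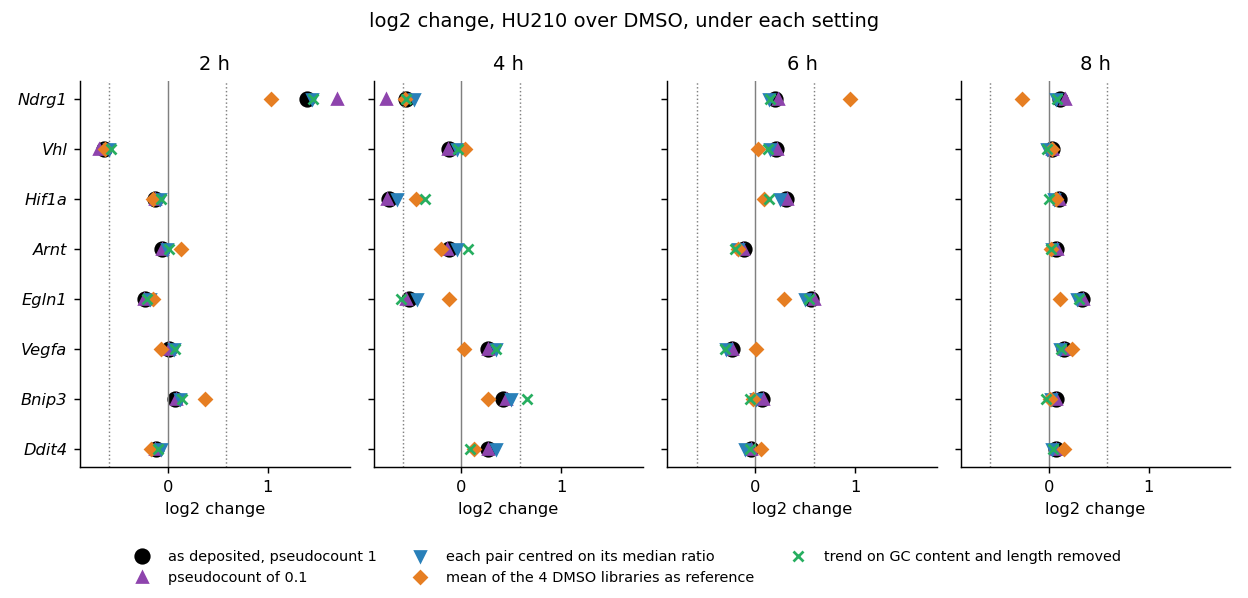
log2 change (horizontal axis) of the 8 genes with a mean of at least 1 FPKM at each time point, with HU210 over the DMSO library of the same time as black circles and 4 other ways to compute it as coloured symbols. Dotted lines mark 1.5-fold. Ndrg1 at 2 h lies past 1.5-fold under all 5, while Hif1a at 4 h does so only with the matched DMSO library as reference and no trend removed.

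At the cutoff of 1.5-fold, Ndrg1 was higher and Vhl lower at 2 h, Hif1a was lower at 4 h and none of the genes passed at 6 or 8 h. Over all listed genes 0.691% were higher and 1.33% lower by 1.5-fold at 2 h, 2.16% and 6.46% at 4 h, 1.58% and 0.837% at 6 h, and 1.16% and 0.629% at 8 h. Since the 2 h contrast chose Ndrg1 and Vhl, their 2 counts are a description. Just inside the cutoff were Vhl at 2 h (-0.64) and Hif1a at 4 h (-0.73), and just outside it were Egln1 at 6 h (0.56) and Ndrg1 at 4 h (-0.56). At 1.3-fold Bnip3 was higher at 4 h and Ndrg1, Hif1a and Egln1 were lower, beside 8.96% and 19.9% of the 11311 genes with a mean of at least 1 FPKM. Egln1 was higher at 6 h and none was lower, beside 6.38% and 1.72%. The median log2 change of the 8 genes with a mean of at least 1 FPKM was -0.09, -0.13, 0.14 and 0.09 at the 4 time points, beside -0.05, -0.08, 0.06 and 0.04 over all 11311 such genes. At 8 h all 8 genes were higher with HU210, by 0.03 to 0.33 on the log2 scale, as were 62.5% of the 11311 genes. The count was 7 with each pair centred, where Vhl was at -0.01, beside 50% of all genes. It was 7 with the average DMSO level as reference, where Ndrg1 was at -0.26, beside 55.9%. With the GC and length trend removed it was 6, beside 49.2% of 10590 genes.

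The wider pathway was read from a list of 76 further genes in 7 groups, of which 70 were listed and 65 had a mean of at least 1 FPKM. At 2 h none of the 65 passed 1.5-fold, beside 0.504% of the 11311 genes higher and 1.45% lower. At shares this small few or none of 65 genes would pass in any list. Ndrg1 and Vhl were chosen for their 2 h change, so the list cannot be set against them. At 4 h 9 of 65 (13.8%) were lower and 0 higher, beside 8.7% lower and 2.77% higher over the 11311 genes. At 6 and 8 h 1 gene was higher at each time, beside 1.73% and 1.17% of all genes, and 0 were lower, beside 0.637% and 0.557%. With each pair centred on its median ratio, 4.49% of all genes were higher and 6.06% lower at 4 h, 1.26% and 0.849% at 6 h, and 0.911% and 0.698% at 8 h, and of the 65 genes 2 were higher and 8 lower at 4 h and none passed later. Among the 9 were, besides Eloc and Cul2, the mTOR activator Rheb at 25.4 against 51.0 FPKM (log2 change -0.98), the kinase Sgk1 at 38.4 against 60.1 FPKM (-0.63) and the glycolytic regulators Pfkfb3 at 12.95 against 22.8 FPKM (-0.77) and Pfkfb4 at 2.62 against 4.83 FPKM (-0.69). The remaining 3 were the collagen lysyl hydroxylase Plod2 at 11.3 against 18.8 FPKM (-0.68), Ankrd37 at 4.83 against 9.65 FPKM (-0.87) and the mitochondrial protein gene Higd1a at 6.96 against 12.2 FPKM (-0.73).

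In 9 of the 9 genes DMSO at 4 h was the highest of the 4 DMSO libraries, which their choice by a low ratio to that library largely fixes, and in 3 (Cul2, Pfkfb4 and Plod2) HU210 at 4 h was also below every DMSO library. Against the average DMSO level the 9 changes were between -0.41 and -0.07 and none passed 1.5-fold. With the GC and length trend removed 6 of 9 passed. Of the 984 genes of all 11311 that were lower at 4 h by the same cutoff, DMSO at 4 h was the highest DMSO library in 88.8%, and HU210 at 4 h was below every DMSO library in 66.7%.

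**Figure D4:**
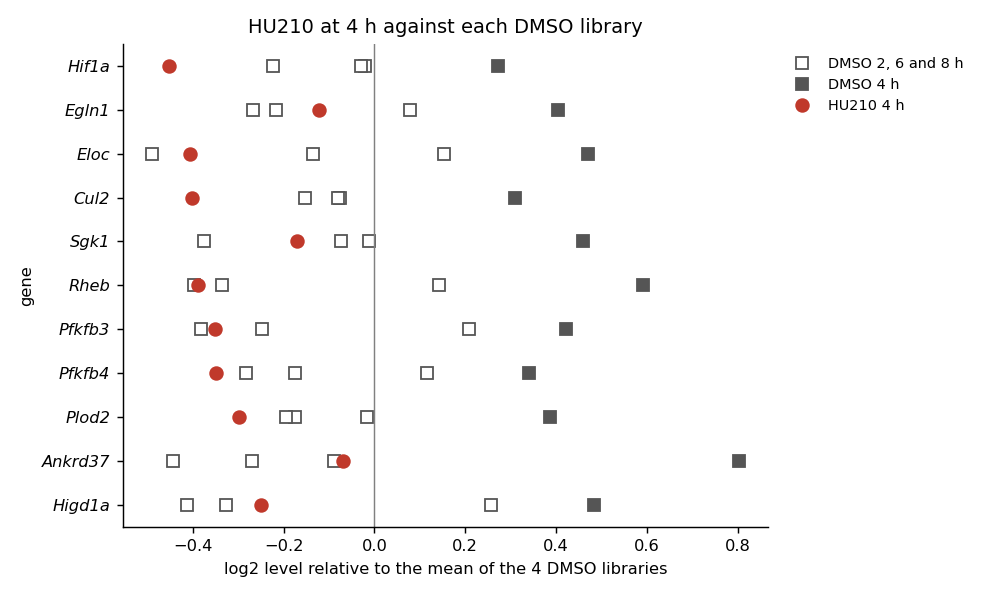
log2 level of Hif1a, Egln1 and the 9 pathway genes lower at 4 h (rows), relative to the mean of the 4 DMSO libraries (horizontal axis, 0 at the grey line), with HU210 at 4 h as red circles, DMSO at 4 h as filled squares and the other DMSO libraries as open squares. DMSO at 4 h is the rightmost square in every row, and HU210 at 4 h lies left of all squares for Hif1a, Cul2, Pfkfb4 and Plod2.

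By group, the median change of the 20 glycolysis and pH genes was 0.16 on the log2 scale at 4 h with 12 higher, and that of the 19 other hypoxia-inducible genes was -0.20 with 5 higher, beside 40.9% of the 11311 genes higher. With the GC and length trend of that pair removed the medians were 0.17 with 15 higher and -0.04 with 9 higher, beside 50.3% of genes. Against the average DMSO level they were 0.07 with 13 higher and -0.11 with 6 higher, beside 41.7% of genes. At 6 h, against the matched library, the glycolysis and pH median was -0.04 with 5 of 20 higher, beside 65.6% of genes. Ldha, the most abundant glycolytic gene, was at 503 FPKM with HU210 and 467 FPKM with DMSO at 4 h, a log2 change of 0.11, and it ranged from 467 to 546 FPKM over all libraries. Mif, the most abundant of the other group, ranged from 538 to 621 FPKM. Of the glycolytic genes 5, named here after their values were seen, were higher by at least 1.3-fold at 4 h, beside 8.96% of the 11311 genes: the glucose transporter Slc2a1 (0.52), the enolase Eno1 (0.50), the pyruvate kinase Pkm (0.48), the aldolase Aldoc (0.42) and the phosphofructokinase Pfkl (0.41). Against the average DMSO level their changes were between 0.15 and 0.32, and with the GC and length trend removed Slc2a1 (0.42) and Aldoc (0.44) still passed 1.3-fold and Eno1 (0.33), Pkm (0.35) and Pfkl (0.30) did not. In the same group 3 genes, Pfkfb3, Pfkfb4 and Gbe1, were lower by 1.3-fold, beside 19.9% of the 11311 genes. At 6 h Pfkfb3 was higher with HU210, at 20.1 against 12.7 FPKM (0.63), having been lower at 4 h, and at 8 h Ankrd37 was higher, at 7.63 against 4.75 FPKM (0.59), also after being lower at 4 h. Of the VEGF ligands and receptors other than Vegfa 6 of 6 were higher at 6 h with a median of 0.19, beside 65.6% of the 11311 genes, and 5 of 6 were higher with each pair centred on its median ratio, since Nrp2 was then at -0.04. Vegfa itself was at -0.23. The endothelial receptors Flt1 and Flt4 stayed under 0.07 FPKM, and the co-receptor Nrp1, the most abundant, ranged from 23.9 to 31.1 FPKM.

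**Figure D5:**
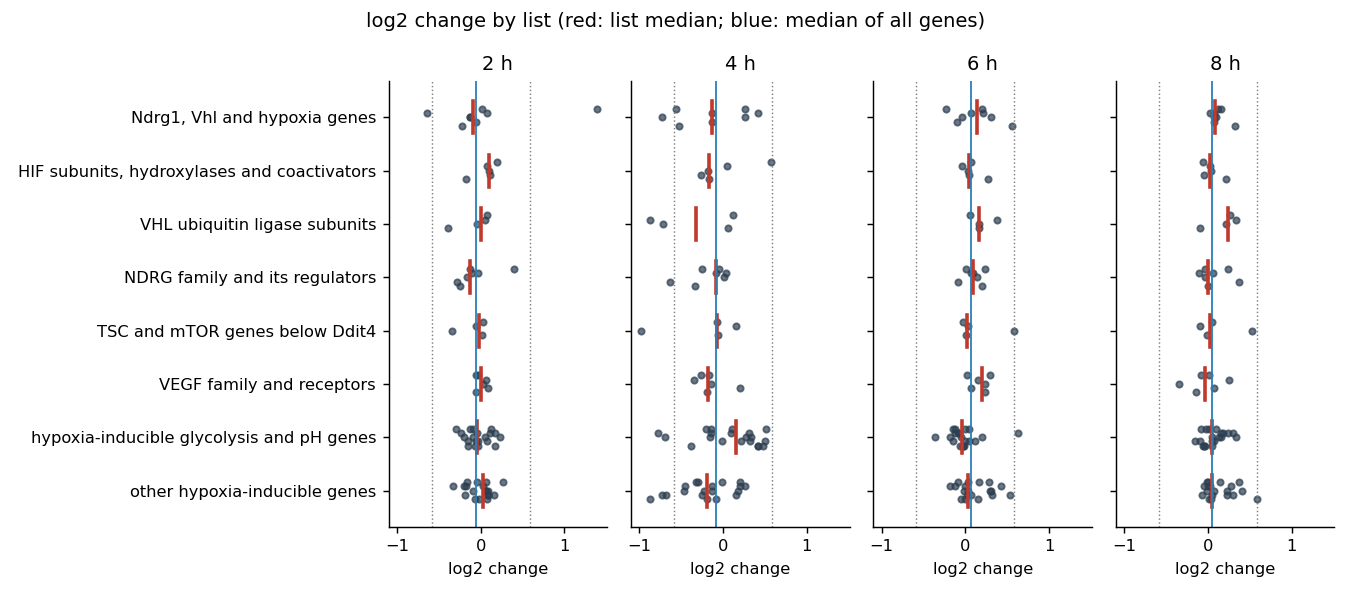
log2 change (horizontal axis) of each gene with a mean of at least 1 FPKM, by list (rows) and time point (panels), with the list median as a red bar, the median of all 11311 genes as a blue line and 1.5-fold as dotted lines. At 2 h Ndrg1 and Vhl, which that contrast chose, are the only points past the dotted lines, and at 4 h all 9 other pathway genes past them lie on the lower side.

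A change shared by the time points could be tested across genes, with the time points as 4 pairs. In limma's moderated test of HU210 against DMSO, 0 of the 11311 genes (0%) passed a Benjamini-Hochberg adjusted p of 0.05, the smallest adjusted p was 0.53, and 148 genes had an unadjusted p under 0.05. Of the 65 pathway genes 0 had an unadjusted p under 0.05. Their median log2 change over the 4 pairs was -0.003, the same as over all genes. The test sees only what the time points share, and the genes with opposite signs at 4 and 6 h above are not of that kind.

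Time itself was compared between the 4 late libraries (6 and 8 h) and the 4 early ones (2 and 4 h), both treatments together, for the 6 genes that the 2 h contrast had not chosen and that were abundant enough. The clearest was Vegfa, at 62.3 to 74.9 FPKM early and 74.2 to 87.3 FPKM late, a log2 difference of 0.23 ± 0.09 (SE, n = 4 against 4). The ranges overlapped, and the difference did not pass, with a limma adjusted p of 0.68 that ran from 0.43 to 0.9998 over the alternatives. Bnip3 was lower late by -0.23 ± 0.11 on the log2 scale (SE, n = 4 against 4, limma adjusted p = 0.70, from 0.19 to 0.9998), and Ddit4 higher by 0.15 ± 0.08 (SE, limma adjusted p = 0.77, from 0.43 to 0.9998). For Hif1a, Arnt and Egln1 the difference was between -0.07 and 0.06, with limma adjusted p from 0.91 to 0.95. For Hif1a and Egln1 it averages opposite directions in the treatments. Egln1 with HU210 was at 16.1 and 16.4 FPKM early and 22.2 and 19.5 FPKM late. With DMSO it was at 19.0 and 24.1 FPKM early and 14.7 and 15.3 FPKM late. Hif1a was likewise higher late with HU210 and lower late with DMSO. In this comparison too 0 of 11311 genes (0%) passed, with 815 at an unadjusted p under 0.05 and a smallest adjusted p of 0.24.

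Of the 65 pathway genes 5 had an unadjusted limma p under 0.05 between late and early, 4 higher and 1 lower. This was a similar share to the 7.21% of all 11311 genes, so the count does not set the list apart. The 5 are named after their values were seen. With each library centred on its median the count was 1 higher and 3 lower, so the direction of the set depended on the scaling. Crebbp, the coactivator that binds the HIF alpha subunit, had the largest difference, from 7.62 to 10.2 FPKM early and from 13.1 to 14.3 FPKM late, a log2 difference of 0.62 ± 0.09 (SE, n = 4 against 4). Its limma adjusted p was 0.26, and 0.051 to 0.9998 over the alternatives. Its groups did not overlap, which held upward for 3.24% of the 11311 genes and downward for 2.2%, and for 3 and 1 of the 65. The hexokinase gene Hk2, the collagen prolyl hydroxylase gene P4ha1 and Tsc2 were higher late by 0.21, 0.21 and 0.16 on the log2 scale, and the carbonic anhydrase gene Car12 lower by -0.23, all with limma adjusted p between 0.62 and 0.69. Crebbp showed the same in either treatment, at 8.32, 8.32, 13.6 and 13.8 FPKM with HU210 and at 7.62, 10.2, 13.1 and 14.3 FPKM with DMSO.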

How the data were processed

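Polyadenylated RNA of N2A cells was sequenced in 8 libraries, each pooled from 2 to 3 experiments. According to the submitters' processing notes and the study's methods, the authors aligned reads to mm9 with TopHat2 2.0.8, Bowtie2 2.1.0 and SAMtools 0.1.7, without a search for new junctions, against an Ensembl annotation, and ran Cufflinks and Cuffdiff with upper-quartile normalization and corrections for multi-mapped reads and fragment bias. The Cufflinks version and Ensembl release are not given in the sources used here. The deposited values are FPKM to which the authors added 1 (the smallest value is 1), and this 1 was subtracted here before levels are given. Columns and a list with the authors' own fold changes, p-values and q-values were not used, and 0 columns belonged to unmapped samples. Read counts were not used here, so no count test was run and the depth behind each value is unknown.

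Log2 changes were computed as log2 of the ratio of FPKM + 1, with HU210 over DMSO. Upper-quartile scaling sets libraries relative to each other, so a common shift of all genes cannot be seen, and the added 1 shrinks changes of genes with low FPKM. Tests used limma 3.58.1 (R 4.3.3, trend, two-sided) on log2(FPKM + 1) over the 11311 genes listed at all 4 time points with a mean of at least 1 FPKM, with the time point as a block or treatment as a term and Benjamini-Hochberg adjustment. The fits were tested on simulated data. The time points stand in for replicates. The error of these tests therefore holds spread between pooled libraries together with any drug effect that differs between time points. In the late against early test it also holds differences between the hours within each arm. Alternatives were a pseudocount of 0.1, median centring, the mean of the 4 DMSO libraries as reference, removal of a loess trend (span 0.3) on GC content and length (GENCODE annotation of mm9, 93.6% of genes matched), other filters and cutoffs, other model terms and leaving out each library or time point. Gene positions are from the same annotation, and promoter sequences from RefSeq on GRCm38.p6, used for letters only. Named genes were the 10 members, pathway genes past 1.5-fold with at least 1 FPKM in both libraries or past an FDR of 5%, the most abundant gene of each list, and the 3 genes closest to Ndrg1 and to Vhl. Ndrg2, Ndrg4, Ndrg3, Rbx1, Mycn, Hif1an, Flt1, Flt4, Nrp2, the glycolytic genes past 1.3-fold at 4 h, the markers and the 5 genes named in the late against early comparison fall outside this rule and were chosen after their values were seen. The members and the lists were chosen with earlier results of these data known. Values were computed in Python 3.11.15 with pandas 2.3.3 and plotted with matplotlib 3.10.9.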

Additional observations from a re-analysis of the deposited data

Results flagged for a closer look

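Vhl stood out among the 4 HU210 libraries, where the 2 h library was the lowest and its distance to the next one made up 0.994 of the whole range (Dixon's ratio). The other 3 HU210 libraries were at 14.9 FPKM each. Since Vhl was chosen from that library, the ratio is a description. Arnt stood out among the 4 DMSO libraries, where the 2 h library was the highest with a ratio of 0.877, and the HU210 library at 2 h was also the highest of its treatment. These were 2 of 18 groups of 4 libraries examined, and about 1 group in 20 exceeds the limit by chance.

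Ndrg1 and Egln1 had differences of opposite sign at different time points. The log2 change of Ndrg1 ran from -0.56 at 4 h to 1.39 at 2 h, and that of Egln1 from -0.53 at 4 h to 0.56 at 6 h. With 1 library per condition the difference between time points was not tested. For Egln1 the 4 h value depended on the DMSO library at 4 h, its highest, and was -0.12 against the mean DMSO level.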

How the results depend on the processing

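With 1 library per condition no replicate numbers could pair the libraries. The time point served as the block of the treatment test, and without it 0 genes passed as well. The log2 change of Ndrg1 at 2 h ran from 1.03 to 1.70 and that of Vhl at 2 h from -0.69 to -0.56 over the alternatives. Of 144 changes recomputed under an alternative, 28 moved by more than the spread of the DMSO libraries and 18 changed sign. With the GC and length trend removed, 0 of the genes described were lower by 1.5-fold at 2 h, since Vhl reached -0.56, and at 4 h 1 was higher (Bnip3, 0.66) and the 1 that was lower was Egln1 in place of Hif1a. With the mean DMSO level as reference 0 were lower at 4 h and 1 was higher at 6 h (Ndrg1, 0.95). A pseudocount of 0.1 gave 2 lower at 4 h and 1 higher at 6 h. At 1.3-fold the 4 h counts were 1 higher and 3 lower, and the 6 h count was 1 higher. Between late and early libraries, leaving out 1 library took Hif1a from -0.0602 to 0.186, negative without HU210 at 4 h or at 6 h, and Egln1 from -0.192 to 0.0741, positive without DMSO at 4 h or at 6 h. The counts past an FDR of 5% were 0 in both limma comparisons under every alternative.

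Over all listed genes, the counts higher and lower by 1.5-fold were 114 and 220 at 2 h, 358 and 1070 at 4 h, 259 and 137 at 6 h, and 190 and 103 at 8 h. With a pseudocount of 0.1 they were 374 and 575, 778 and 1730, 667 and 523, and 632 and 356. At 1.3-fold they were 266 and 545, 1095 and 2399, 842 and 297, and 609 and 243. With the trend removed they were 72 and 79 at 2 h, 431 lower at 4 h, 122 higher at 6 h, and 78 and 68 at 8 h. With the mean DMSO level as reference they were 70 and 201 at 4 h, 163 and 74 at 6 h, and 123 higher at 8 h. With at least 1 FPKM in both libraries 44 were higher at 2 h, 52 lower at 6 h, 111 higher at 8 h with 49 lower, and centring each pair gave 564 higher at 4 h. The cause of these moves was not tested.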
